A study of Wolfiporia cocos with 12 samples.

Results

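Wolfiporia cocos is a brown-rot fungus, a basidiomycete that takes the cellulose and hemicellulose out of wood and leaves much of the lignin behind. The models described here are 237 gene models of this fungus, of 12746 in the deposited expression table (1.86%), whose InterPro domain label names a DNA-binding or regulatory domain of transcription factors. They were chosen by label alone: a label had to hold 1 of 10 strings, namely the C2H2 zinc finger, the fungal transcriptional regulatory protein (the Zn2Cys6 binuclear cluster), the fungal specific transcription factor domain, the GATA zinc finger, homeobox, basic-leucine zipper (bZIP), heat shock factor (HSF), high mobility group (HMG), helix-loop-helix (bHLH) or Myb. No expression value entered the choice. Models are named below by the protein number in the table, since the table pairs no gene names with them.

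Transcription factors of filamentous fungi bind short DNA sites near the genes they control and raise or lower their transcription. In ascomycetes, Zn2Cys6 proteins such as XlnR of Aspergillus switch on cellulase and xylanase genes when plant polymers are met, and C2H2 proteins such as CreA repress them while glucose is present. GATA factors such as AreA act in nitrogen use, bZIP factors in amino acid and stress control, heat shock factors on chaperone genes, homeobox factors at the mating-type loci of basidiomycetes, and HMG-box proteins bend DNA as mating factors or as abundant chromatin proteins. Which of these roles the W. cocos models have is not given by the labels.

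Strain MD-104 was grown for 5 days on a rotary shaker in 250 ml cultures, and RNA was sequenced as single reads of 100 nt. The 4 media differed in their carbon source: glucose or Avicel, a microcrystalline cellulose, in defined medium, and milled wood of aspen (Populus grandidentata) or lodgepole pine (Pinus contorta) at 0.5% w/v as the only carbon source in basal salts. Each medium had 3 cultures, so there were 12 libraries, and the labels name a single strain and no genetic change or drug in any group. Glucose and Avicel libraries were run on lane 1 and both woods on lane 2, as the column names record, so the carbon source, the base medium and the lane cannot be told apart between wood and defined medium; the pairs on a single lane are Avicel with glucose and pine with aspen.

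Values were RPKM, read counts scaled by model length and by library size. Judged from the spacing of low values, libraries held 9.8 M reads (Avicel replicate 3) to 22.4 M reads (aspen replicate 1), and 3 reads in a 1 kb model came to between 0.134 RPKM in aspen replicate 1 and 0.305 RPKM in Avicel replicate 3. A narrower spacing, at 0.5 of this one, which would make the libraries deeper, left few values on its own steps: in Avicel replicate 3, 44 low values lay at 1 step, 31 at 2, 3 at 0.5 and 4 at 1.5. Across genes, which are not independent replicates, cultures of 1 medium had correlations of log2 values between 0.959 and 0.985. Avicel replicate 3, the shallowest library, stood apart from the other Avicel cultures on the second principal component of the models described here, at -4.65 against -0.41 and -1.05. Pine replicate 2, with 11.2 M reads, stood apart from the other pine cultures on the same component, at 4.22 against -0.77 and -2.58. Calls that depended on either of these cultures are named where they are reported.

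The 2 large classes were the C2H2 zinc fingers, with 84 models, and the Zn2Cys6 regulators, with 71. There were 16 HMG, 14 homeobox, 12 bHLH, 12 Myb, 10 GATA, 7 bZIP and 7 fungal specific domain models, and 4 in the HSF class, of which 3 carried the HSF DNA-binding domain and 1 the label of an HSF-binding protein, which in animals inhibits HSF and is not itself a DNA-binding factor. Of the 50 C2H2 models whose listed match was the Pfam zf-C2H2 domain, 24 had 1 finger match, 20 had 2 and 6 had 3 or more, with 8 the most. In the Zn2Cys6 class the domain lay near the start of the protein: its first residue had a median position of 41, and it fell within the first 100 residues in 55 of 71. The models lay on 28 scaffolds, and their median span of 2104 bp was above that of all models, 1634 bp. Some were short: 12 spanned under 300 bp, and the names of these below carry their span. Of the 237, 40 overlapped another model, and no source used here states strand-specific counting, so reads in an overlap cannot be assigned to 1 model.

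Most of the regulators were transcribed in every medium, at moderate levels. The median model had a mean of 21.6 RPKM over the 12 libraries, against 11.9 for all models, and 10.5% lay under 1 RPKM against 22.4% of all models. Few were very abundant: 17 (7.17%) exceeded 100 RPKM against 10.7% of all models. All 237 together took 1.18% of the summed RPKM in Avicel replicate 1, the lowest library, and 1.58% in glucose replicate 1, the highest.

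Class medians spread from 2.02 to 49.8 RPKM. C2H2 models had a median of 8.51 RPKM and homeobox models 2.02 RPKM, below the median of all models, and the medians of Zn2Cys6 (27.8 RPKM), bHLH (27.6), Myb (22.7), GATA (37.4), HSF (49.8) and bZIP (49.6) lay above it. The HMG class was divided, with 7 of its 16 models over 100 RPKM and 3 under 1 RPKM around a median of 37.7 RPKM. Homeobox models were divided too: 7 of 14 stayed under 1 RPKM, while 43.9 RPKM was the highest mean in the class. The 7 fungal specific domain models had a median of 11.5 RPKM.

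**Figure D1:**
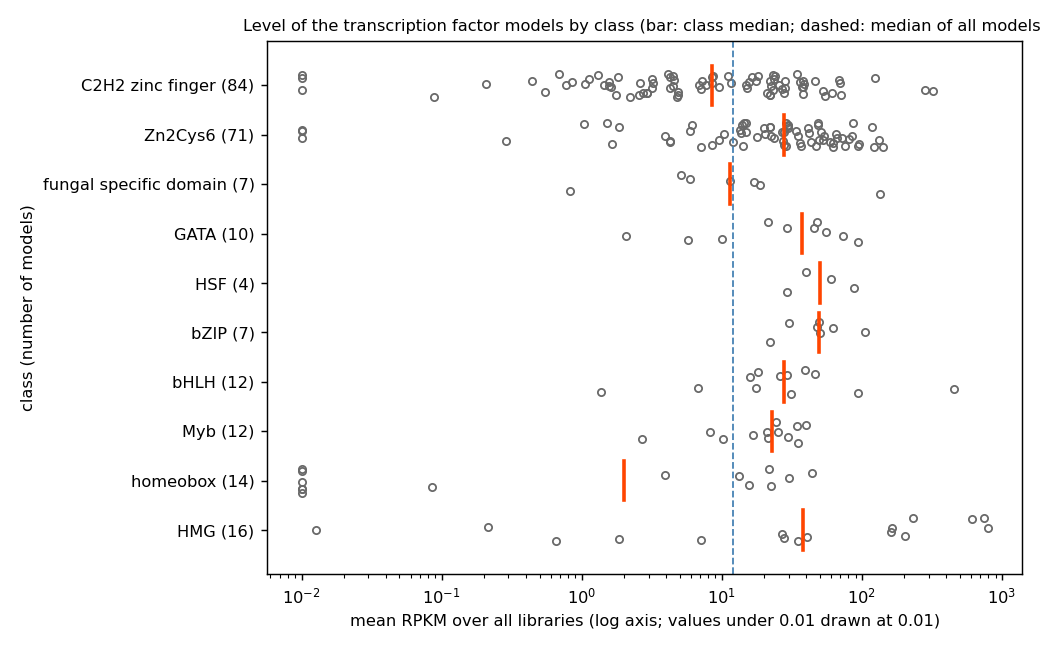
Each circle is 1 of the 237 models, placed by its mean RPKM over the 12 libraries on a log axis and grouped by class; the bars are class medians and the dashed line is the median of all 12746 models, 11.9 RPKM. HMG models reach 796 RPKM and homeobox models spread from 0 to 43.9 RPKM.

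None of the 5 most abundant models, 3 of them HMG-box proteins, was called in any comparison. HMG 62170, a 204 bp model on scaffold 1, had 868 ± 237 RPKM on glucose, 857 ± 235 on Avicel, 697 ± 157 on aspen and 760 ± 137 on pine (mean ± SD, n = 3 here and below). HMG 90097 had 682 ± 45.6, 693 ± 72.3, 880 ± 12.7 and 721 ± 42.0 RPKM in the same order, and HMG 139706 had 547 ± 53.1, 587 ± 84.6, 697 ± 33.0 and 623 ± 173 RPKM. The bHLH model 22482, which overlaps another model, stood at 466 ± 88.1, 401 ± 25.4, 482 ± 62.3 and 454 ± 58.6 RPKM. C2H2 135083 had 429 ± 44.5 RPKM on glucose, 353 ± 131 on Avicel, 264 ± 40.2 on aspen and 244 ± 23.1 on pine, a log2 difference from glucose of -0.70 ± 0.24 (SE) on aspen (limma, Benjamini-Hochberg adjusted p = 0.0489) and -0.81 ± 0.24 on pine (adjusted p = 0.0268), both short of a 2-fold change. Its test over all media gave an adjusted p of 0.0652, and those of the 4 others were 0.684 (62170), 0.135 (90097), 0.507 (139706) and 0.568 (22482).

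Differences between media were tested with limma on log2(RPKM + 1) for models that averaged at least 1 RPKM in at least 1 medium. That kept 10184 models, among them 216 of the 237. A model is called where the adjusted p is under 0.05 and the change at least 2-fold, and changes are log2 changes on that scale with their SE. Of the 21 models left out by this filter, 8 were listed at 0 in all 12 libraries and no other exceeded 1.64 RPKM in any library. The 21 were 8 C2H2, 7 homeobox, 4 Zn2Cys6 and 2 HMG models, and their changes are not reported.

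Over the 4 media, 60 of the 216 models (27.8%) differed at an adjusted p under 0.05 in the F test, against 29.3% of all tested models, a share near the background. By class these were 22 of 67 Zn2Cys6, 17 of 76 C2H2, 5 of 14 HMG, 3 of 10 GATA, 3 of 7 bZIP, 3 of 7 fungal specific domain, 2 of 12 Myb, 2 of 12 bHLH, 2 of 4 HSF and 1 of 7 homeobox models. Among the 60, the highest mean was on glucose for 32, on aspen for 11, on pine for 9 and on Avicel for 8, and the lowest was on pine for 29. As shares, 53.3% were highest on glucose and 48.3% lowest on pine, beside 43.9% and 25.0% of the 2987 models of any kind that passed this test; the differences between these shares were not tested. On the deposited scale the median tested model was itself 0.18 (log2) lower on Avicel, 0.12 lower on aspen and 0.14 lower on pine than on glucose.

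Medium means of the regulators are set here beside those of all tested models. The ratio of the highest to the lowest medium mean, with 1 RPKM added to each, was under 1.5 for 117 of the 216 (54.2%, beside 58.4% of all tested models), between 1.5 and 2 for 57 (26.4% beside 22.4%) and at least 2 for 42 (19.4% beside 19.2%), of which 11 reached 4 (5.09% beside 5.78%). The median ratio was 1.47, beside 1.42 for all tested models. In all, 36 models (16.7%, beside 16.7% of all tested models) were called in at least 1 of the 6 comparisons, 29 more (13.4% beside 14.0%) passed the F test with ratios of 1.39 to 2.03, and 151 (69.9% beside 69.3%) did neither. Of the 36 called models 5 did not pass the F test: 153822, 162542, 136541, 145511 and 27349.

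**Figure D2:**
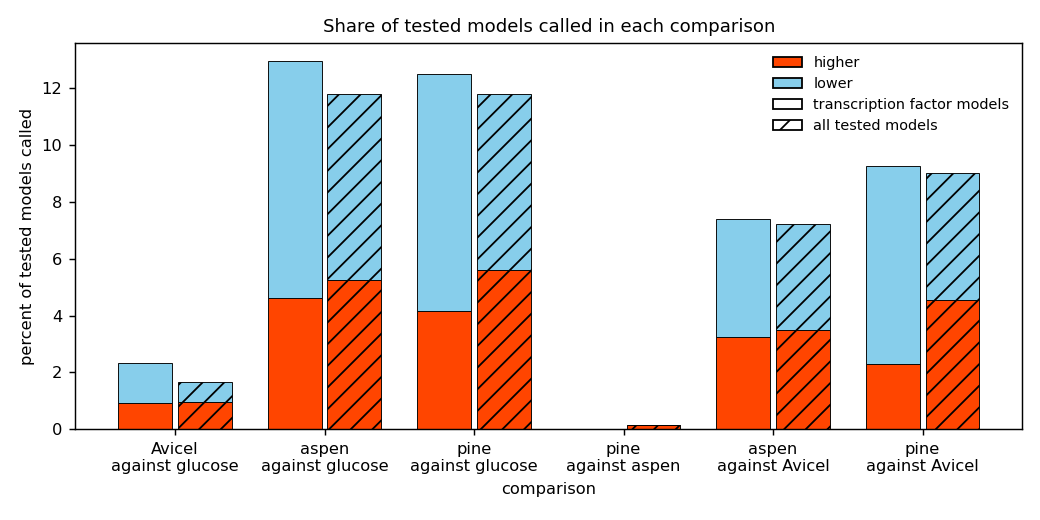
Bars give the percent of tested models called in each of the 6 comparisons, stacked as higher and lower, for the 216 tested transcription factor models (plain) and all 10184 tested models (hatched). The totals are 2.31% against 1.67% for Avicel and glucose, 12.96% against 11.8% for aspen and glucose and 12.5% against 11.8% for pine and glucose; no transcription factor model was called between the woods.

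Wood against glucose compared milled wood in basal salts with glucose in defined medium. On aspen 10 models rose and 18 fell (12.96% of 216), where 11.8% of all tested models were called, 5.24% as higher and 6.56% as lower. With the medians of the libraries made equal the split was 13 higher and 15 lower, and the same after quantile normalization. The shares of all tested models under these scalings are not given here or below, so rescaled splits have no background beside them. On pine 9 rose and 18 fell (12.5%), against 11.8% of all tested models, 5.61% higher and 6.20% lower. Both shares lie near the background. In bulk cultures, fewer cells reading a gene and less of its RNA per cell cannot be told apart. The median change of the 216 models was -0.12 on aspen and -0.22 on pine, beside -0.12 and -0.14 for all tested models. These comparisons share the glucose libraries, so their values are given side by side and not counted as separate evidence. No model was called between the woods, so a call on 1 wood alone does not show a difference between aspen and pine.

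**Figure D3:**
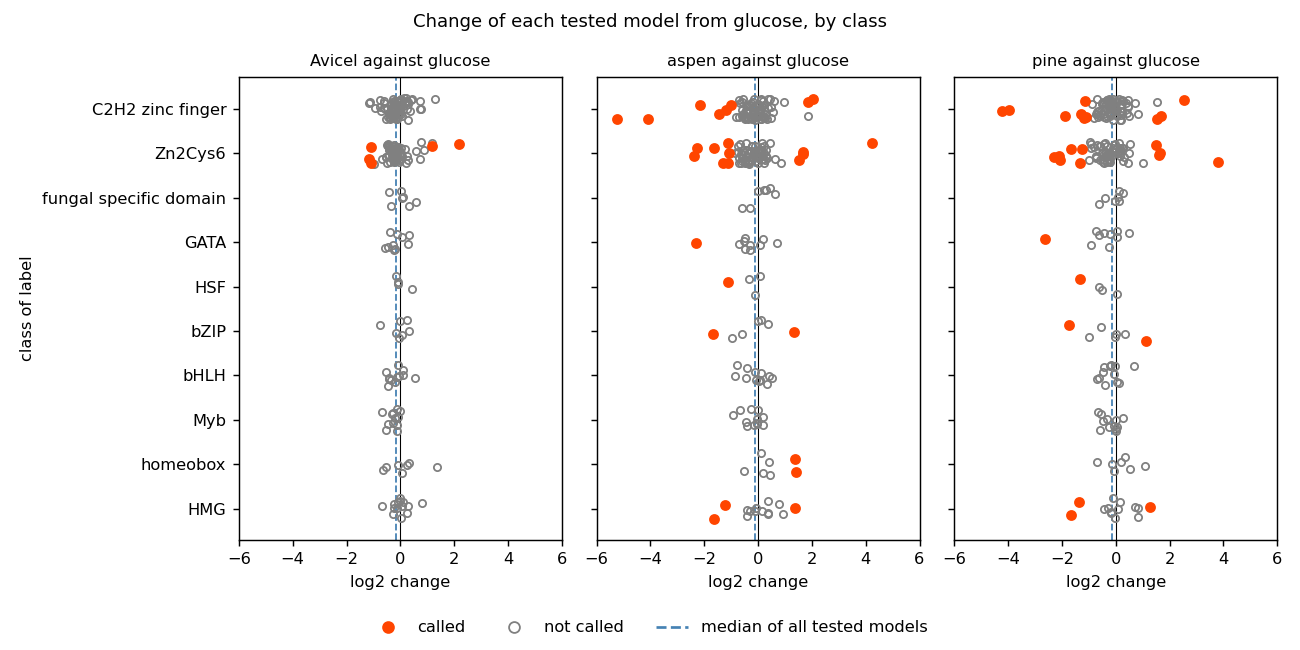
Each circle is a tested model placed by its log2 change from glucose, in rows by class and panels for Avicel, aspen and pine; filled circles passed the call and the dashed line is the median of all tested models. Calls on the woods run from -5.24 (C2H2 124482, aspen) to 4.23 (Zn2Cys6 166519, aspen), with none in the Myb, bHLH and fungal specific domain rows. Avicel has 5, all in the Zn2Cys6 class.

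Among the Zn2Cys6 regulators, 4 of 67 rose and 7 fell on aspen (16.4%), and 4 rose and 6 fell on pine (14.9%). Of all tested models 11.8% were called on each wood. The class has the strongest riser among the transcription factor models. Model 166519 (scaffold 13, 215304 to 216906) was read at 15.6, 9.34 and 17.2 RPKM on glucose, 105, 59.0 and 43.0 on Avicel, 264, 296 and 262 on aspen and 144, 275 and 212 on pine. The glucose, Avicel and wood cultures formed 3 steps with no overlap, and pine replicate 1 was the lowest wood culture. Its change was 4.23 ± 0.32 on aspen (limma, adjusted p = 5.48e-06), 3.80 ± 0.32 on pine (adjusted p = 7.82e-06) and 2.16 ± 0.32 on Avicel (adjusted p = 0.00564), and both woods were also above Avicel, by 2.07 ± 0.32 and 1.64 ± 0.32. All 5 calls held under each of the 21 other settings that left the fold threshold as it was. Its step from glucose to Avicel lies within lane 1.

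The other Zn2Cys6 risers were smaller. Model 142321 (scaffold 2, 969374 to 971375) had 20.2, 15.1 and 14.4 RPKM on glucose, 47.6, 34.2 and 35.5 on Avicel, 43.0, 60.1 and 61.3 on aspen and 47.2, 43.3 and 69.1 on pine. Every culture on a polymer exceeded every glucose culture, and Avicel overlapped wood. It rose by 1.66 ± 0.21 on aspen and 1.61 ± 0.21 on pine (limma, adjusted p = 0.000188 and 0.000234). Model 25108 (732 bp, scaffold 5) gave 12.4, 12.9 and 14.1 RPKM on glucose, 16.1, 12.9 and 11.7 on Avicel, 39.6, 43.3 and 49.8 on aspen and 31.2, 37.5 and 52.1 on pine, so glucose and Avicel overlapped and both woods lay apart. It rose by 1.67 ± 0.18 on aspen and 1.51 ± 0.18 on pine over glucose (adjusted p = 5.89e-05 and 0.000116), and by 1.64 ± 0.18 and 1.48 ± 0.18 over Avicel. A short model, 45344 (228 bp), went from 3.50 ± 1.33 RPKM on glucose to 12.2 ± 5.13 on aspen and 13.1 ± 4.53 on pine, with 9.51 ± 4.48 on Avicel.

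The Zn2Cys6 models that fell included some of the more abundant of the class. Model 161707 (scaffold 2, 3140328 to 3144141) stood at 111, 113 and 120 RPKM on glucose, 37.0, 61.0 and 57.5 on Avicel, 20.1, 25.1 and 24.3 on aspen and 23.0, 24.5 and 21.1 on pine. Glucose, Avicel and wood did not overlap, while the woods overlapped each other. The log2 change was -2.26 ± 0.17 on aspen and -2.28 ± 0.17 on pine (limma, adjusted p = 5.60e-06 and 3.54e-06), and it had the smallest F-test p of the class. Model 23609 (scaffold 3, 197878 to 200969) had 155, 133 and 126 RPKM on glucose, 43.9, 78.1 and 74.9 on Avicel, 24.8, 28.8 and 24.2 on aspen and 36.9, 28.0 and 28.2 on pine, again in steps without overlap between glucose, Avicel and wood. It changed by -2.36 ± 0.20 on aspen and -2.12 ± 0.20 on pine (adjusted p = 1.34e-05 and 2.26e-05).

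Model 90423 was high on both defined media and low on both woods. It had 39.0, 28.0 and 25.0 RPKM on glucose, 50.3, 44.4 and 43.8 on Avicel, 11.4, 5.18 and 11.9 on aspen and 10.2, 2.31 and 9.60 on pine. Replicate 2 was the lowest culture on each wood. Changes from glucose were -1.64 ± 0.42 and -2.09 ± 0.42 (limma, adjusted p = 0.0142 and 0.00387), and from Avicel -2.24 ± 0.42 and -2.69 ± 0.42. The aspen call against glucose was lost without glucose replicate 1 or without aspen replicate 2. Model 66856 went from 133 ± 18.6 RPKM on glucose and 92.7 ± 16.1 on Avicel to 62.9 ± 3.03 on aspen and 51.9 ± 0.489 on pine (the aspen call was lost without glucose replicate 3 or with library medians made equal), and model 116479, which overlaps a model on the other strand by 531 bp, from 55.0 ± 7.42 and 40.8 ± 14.6 to 22.4 ± 6.92 and 16.5 ± 2.15. Model 162542 was called on aspen (17.3 ± 2.74 RPKM against 38.7 ± 3.52 on glucose) and not on pine (23.6 ± 7.48 RPKM); its aspen call was lost without glucose replicate 2, without aspen replicate 1 or without aspen replicate 2.

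Model 161704 is a neighbour of 161707: with the fungal specific domain model 136368 they lie within 3128773 to 3144141 of scaffold 2, all on the minus strand. It was read at 22.8, 24.8 and 22.7 RPKM on glucose, 8.92, 12.8 and 10.4 on Avicel, 11.0, 9.17 and 11.0 on aspen and 8.70, 11.99 and 7.81 on pine. All 3 polymer media overlapped and lay below glucose. The log2 changes were -1.11 ± 0.17 on aspen and -1.24 ± 0.17 on pine (limma, adjusted p = 0.000737 and 0.000314); the aspen call was lost with quantile normalization or a pseudocount of 5, and the pine call with a pseudocount of 5. Model 136368 held 22.4 ± 2.99 RPKM on glucose, 17.3 ± 0.708 on Avicel, 14.4 ± 1.95 on aspen and 14.2 ± 0.635 on pine, log2 differences of -0.60 ± 0.14 and -0.62 ± 0.14 on the woods (adjusted p = 0.00736 and 0.00641) that stayed short of 2-fold. Models 161704 and 136368 overlap by 1183 bp on the same strand, so reads there may be shared and the values are not independent. A cytochrome P450 model that overlaps 161704 by 221 bp on the other strand had 13.2 RPKM on glucose and 55.8 and 66.5 on the woods.

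**Figure D4:**
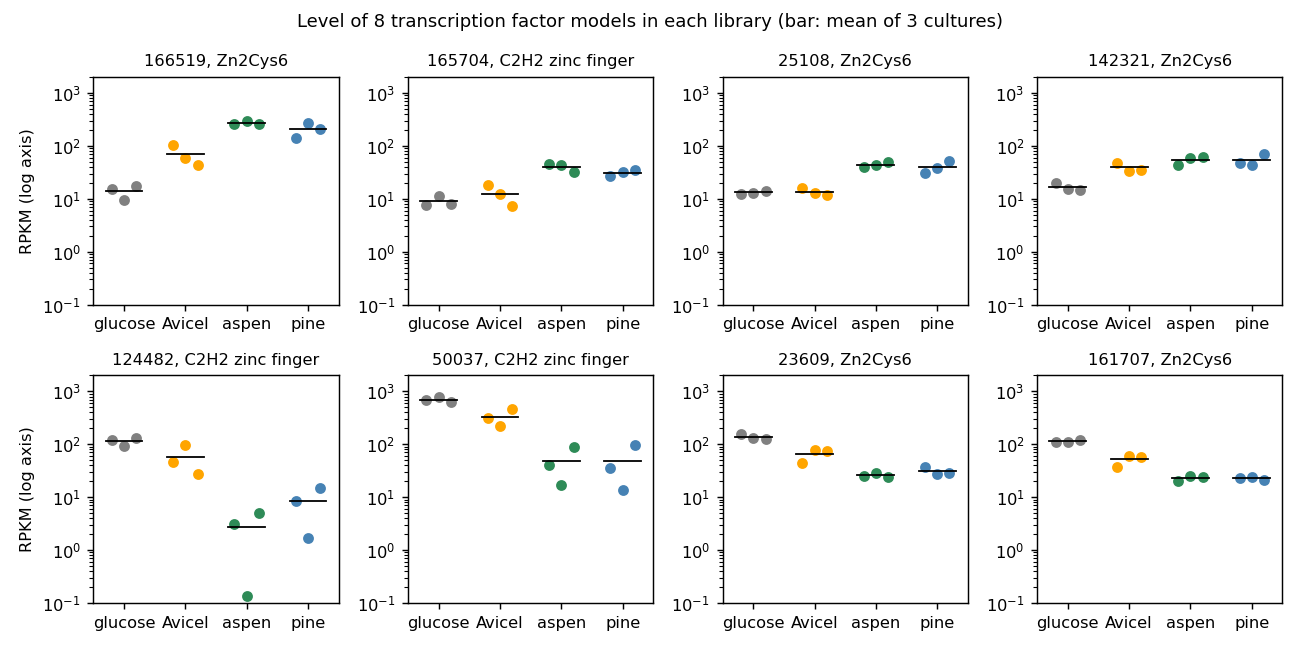
RPKM of 8 models in every library on a log axis, with a point per culture and a bar at the mean of 3. The upper row holds the 4 largest rises on aspen and the lower row the 4 largest falls. Both are among Zn2Cys6 and C2H2 models whose aspen call was kept in all 21 settings with the same fold threshold. Zn2Cys6 166519 goes from 14.1 RPKM on glucose to 274 on aspen, and C2H2 50037 from 699 to 48.8 RPKM.

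Of the 76 tested C2H2 zinc fingers, 2 rose and 6 fell on aspen (10.5%) and 3 rose and 7 fell on pine (13.2%). The share of all tested models was 11.8% on each wood. The largest falls among the transcription factor models were here. Model 50037 (666 bp, scaffold 12, 1239985 to 1240650) was the second most abundant zinc finger over all libraries, at 690, 771 and 635 RPKM on glucose. It had 309, 221 and 455 RPKM on Avicel, 41.2, 16.7 and 88.6 on aspen and 35.9, 13.7 and 97.3 on pine. Glucose, Avicel and wood did not overlap, while the cultures within each wood differed several-fold, with replicate 2 lowest and replicate 3 highest on both. Its change was -4.10 ± 0.64 on aspen and -4.21 ± 0.64 on pine (limma, adjusted p = 0.000777 and 0.000620), and -2.96 ± 0.64 and -3.07 ± 0.64 from Avicel.

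Model 124482 (529 bp, scaffold 9, 1899637 to 1900165) had 122, 94.0 and 131 RPKM on glucose, 46.7, 95.5 and 27.6 on Avicel, 3.11, 0.138 and 5.09 on aspen and 8.41, 1.70 and 15.0 on pine. Avicel replicate 2 reached the glucose range, and every wood culture lay below every culture on defined medium. Aspen replicate 2, at 0.138 RPKM, was below the 0.195 RPKM that 3 reads in a 1 kb model come to in that library. The change was -5.24 ± 0.70 on aspen and -3.96 ± 0.70 on pine (limma, adjusted p = 0.000245 and 0.00161); from Avicel it was -4.06 ± 0.70 and -2.78 ± 0.70, the last lost without Avicel replicate 2, without pine replicate 2 or with a pseudocount of 0.1.

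Smaller falls came in other zinc fingers. Model 144426 had 21.0, 21.2 and 53.3 RPKM on glucose, 19.7, 63.5 and 27.5 on Avicel, 6.33, 3.13 and 8.56 on aspen and 8.60, 2.60 and 14.7 on pine, with replicate 2 again lowest on each wood. Its wood values did not overlap those of glucose or Avicel, while cultures of a medium differed several-fold. The call on aspen, a change of -2.17 ± 0.58 (limma, adjusted p = 0.0172), was lost without glucose replicate 3 or without aspen replicate 2, and that on pine, -1.87 ± 0.58 (adjusted p = 0.0331), without glucose replicate 1 or 3 or without pine replicate 1 or 2. Model 138261 fell from 15.6 ± 2.87 RPKM on glucose to 5.29 ± 2.15 on aspen and 5.76 ± 1.65 on pine, with 7.64 ± 1.77 on Avicel. Model 136541 was called lower on aspen alone (15.9 ± 2.03 RPKM against 33.6 ± 7.67 on glucose), and 27146 (34.0 ± 4.93 against 77.3 ± 3.50) and 156596 (1.99 ± 1.04 against 5.16 ± 1.31) on pine alone; both narrow calls depended on a few cultures, that of 136541 being lost without glucose replicate 1 or aspen replicate 1 and that of 156596 without glucose replicate 1 or pine replicate 2, and each also when the medians of the libraries were made equal. For 145511 the glucose cultures held 0.611, 0.645 and 4.08 RPKM and no wood culture exceeded 0.119 RPKM, which is under the value of 3 reads in a 1 kb model in every library, so the size of its change cannot be read. Its 2 wood calls were lost when any 1 culture of that wood was left out.

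The zinc fingers that rose were of low or moderate level. Model 165704 (scaffold 10, 579610 to 580952) had 7.73, 11.5 and 7.83 RPKM on glucose, 18.1, 12.4 and 7.25 on Avicel, 45.6, 43.1 and 32.0 on aspen and 26.8, 31.5 and 34.4 on pine. Both woods lay above all cultures on defined medium, where glucose and Avicel overlapped. It rose by 2.04 ± 0.27 on aspen and 1.68 ± 0.27 on pine (limma, adjusted p = 0.000236 and 0.000910). Model 145446 (scaffold 10, 775330 to 776901) was barely read on defined medium, with 0.383, 0.685 and 0.141 RPKM on glucose and 0.779, 0.479 and 0.083 on Avicel, and had 2.22, 2.87 and 9.39 on aspen and 6.68, 5.99 and 8.56 on pine. All 6 wood cultures exceeded all 6 others. The change on this scale was 1.87 ± 0.37 on aspen and 2.53 ± 0.37 on pine (adjusted p = 0.00364 and 0.000481), and it understates the ratio of so low a gene. The 229 bp model 47058 rose on pine, from 0.723 ± 0.250 to 4.28 ± 2.54 RPKM, and its neighbour 132104, a zinc finger 4980 bp away, had 3.95 ± 1.67 RPKM on glucose and 3.39 ± 1.93 on pine and was not called.

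One more zinc finger, 166606, had a high ratio between media without a call. It held 7.67, 8.57 and 6.54 RPKM on glucose, 16.4, 13.6 and 34.5 on Avicel, 27.0, 21.2 and 47.3 on aspen and 27.7, 6.13 and 70.1 on pine, where replicate 2 fell below every glucose culture. Its change on aspen was 1.86 ± 0.65 (limma, adjusted p = 0.0544).

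The smaller classes hold too few models to set their shares closely beside the 11.8% of all tested models called on each wood. GATA had 1 model of 10 called on each wood, in the downward direction. Model 133057 (scaffold 8, 117137 to 119432) had 116, 52.8 and 102 RPKM on glucose, 34.9, 65.9 and 106 on Avicel, 13.5, 23.4 and 14.0 on aspen and 16.6, 7.35 and 17.6 on pine. Glucose and Avicel overlapped, and every wood culture lay below both. The changes were -2.31 ± 0.43 on aspen and -2.63 ± 0.43 on pine (limma, adjusted p = 0.00249 and 0.00107). It overlaps a model on the other strand that stayed under 1 RPKM in mean on each medium. A second GATA model, 24381, was lower on wood than on Avicel (110 ± 34.7 RPKM on Avicel, 52.1 ± 9.79 on aspen, 44.7 ± 6.48 on pine) and held 86.2 ± 16.1 on glucose.

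The bZIP class had 1 riser and 1 model that fell, among 7. Model 73456 (461 bp, scaffold 5) had 60.0, 61.5 and 60.3 RPKM on glucose, 91.7, 62.3 and 67.1 on Avicel, 140, 181 and 141 on aspen and 117, 173 and 113 on pine. Wood lay above defined medium throughout. It rose by 1.32 ± 0.19 on aspen and 1.11 ± 0.19 on pine (limma, adjusted p = 0.000405 and 0.00131), the pine call being lost without pine replicate 2. Model 29119 had 85.0, 78.7 and 108 RPKM on glucose, 30.8, 83.5 and 56.6 on Avicel, 30.5, 21.8 and 30.3 on aspen and 32.8, 22.4 and 25.1 on pine. Avicel overlapped glucose and pine, and both woods lay below glucose. It changed by -1.68 ± 0.30 and -1.73 ± 0.30 on the woods (adjusted p = 0.00172 and 0.00143).

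HMG-box models moved in both directions. Model 143263 (scaffold 4, 681605 to 684589) had 362, 264 and 267 RPKM on glucose, 272, 280 and 330 on Avicel, 123, 109 and 148 on aspen and 94.1, 63.0 and 130 on pine, so that glucose and Avicel overlapped and the woods lay below. Its change was -1.22 ± 0.23 on aspen and -1.67 ± 0.23 on pine (limma, adjusted p = 0.00273 and 0.000328), and about the same from Avicel (-1.22 ± 0.23 and -1.67 ± 0.23). Model 147083 fell in steps, from 60.8 ± 4.52 RPKM on glucose through 37.3 ± 4.92 on Avicel to 19.3 ± 3.79 on aspen and 23.0 ± 1.96 on pine, with log2 changes of -1.62 ± 0.16 and -1.37 ± 0.16 on the woods (adjusted p = 2.64e-05 and 7.92e-05). The 252 bp model 60655 rose from 14.1, 11.2 and 24.2 RPKM on glucose and 11.4, 15.0 and 12.9 on Avicel to 31.4, 43.3 and 53.8 on aspen and 46.1, 39.0 and 33.5 on pine, by 1.36 ± 0.26 and 1.27 ± 0.26 (adjusted p = 0.00282 and 0.00442), with all wood cultures above all others. Another HMG model, 54666 (216 bp), was called higher on aspen than on Avicel, at 37.3 ± 13.4 against 17.4 ± 5.37 RPKM. HMG 140741 had 274 ± 17.9 RPKM on glucose and 207 ± 24.9 and 203 ± 12.7 on the woods; it and the Myb model 107143 were the only 2 of the 237 among the 704 models with a protein score.

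In the HSF class 1 of 4 was called on each wood. The HSF-domain model 100521 had 116, 59.9 and 79.4 RPKM on glucose, 45.1, 83.1 and 123 on Avicel, 31.9, 49.2 and 33.8 on aspen and 40.6, 22.1 and 35.6 on pine. Wood lay below glucose without overlap, and below Avicel except for Avicel replicate 1, which fell inside the aspen range. The changes were -1.11 ± 0.36 on aspen and -1.34 ± 0.36 on pine (limma, adjusted p = 0.0399 and 0.0171). The aspen call was lost in 8 of 21 settings, among them without glucose replicate 1 or 3, without Avicel replicate 2 and without aspen replicate 1 or 3, and the pine call without glucose replicate 1 or without pine replicate 2. Model 161146 had 40.5 ± 9.29 RPKM on glucose, 55.1 ± 11.6 on Avicel, 37.1 ± 3.48 on aspen and 26.0 ± 7.41 on pine and was called on pine against Avicel; 1346 of its 1386 bp overlap a model of the arrestin family on the other strand, which held 41.1 to 48.1 RPKM in medium means.

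Homeobox models were called on aspen alone, 2 of 7 and both higher, where 5.24% of all tested models were called higher. Model 153822 (scaffold 7) had 9.99, 6.01 and 12.6 RPKM on glucose, 14.8, 15.1 and 6.03 on Avicel, 24.9, 26.7 and 25.5 on aspen and 17.6, 19.4 and 7.44 on pine. Aspen stood above all other cultures, and pine replicate 3 lay in the glucose range; the pine change from aspen was -0.86 ± 0.38 (limma, adjusted p = 0.720). The 165 bp model 48393 had 11.1, 14.3 and 15.0 RPKM on glucose, 22.8, 37.5 and 51.8 on Avicel, 24.6, 35.0 and 55.1 on aspen and 35.6, 16.8 and 41.2 on pine, where glucose lay below all others. The aspen changes were 1.39 ± 0.38 and 1.38 ± 0.38 (limma, adjusted p = 0.0203 and 0.0192); the first was lost without glucose replicate 2, aspen replicate 2 or aspen replicate 3 and the second without glucose replicate 1, aspen replicate 2 or aspen replicate 3. The C2H2 model 164706, 7050 bp from 153822, held 2.15 ± 0.881 RPKM on glucose and 1.63 ± 0.246 on aspen and was not called.

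No model of the Myb, bHLH or fungal specific domain classes (12, 12 and 7 tested) was called in any comparison. Of all tested models 16.7% were called in at least 1. The Myb model with the smallest F-test p, 139714, had 33.1, 33.3 and 30.9 RPKM on glucose, 24.0, 22.7 and 23.3 on Avicel, 20.0, 18.4 and 20.8 on aspen and 21.1, 18.7 and 23.8 on pine. Glucose lay above the other media without overlap. The log2 difference was -0.69 ± 0.12 on aspen and -0.60 ± 0.12 on pine (limma, adjusted p = 0.00121 and 0.00305), short of 2-fold. The bHLH model 139798 was lowest on Avicel, at 33.5, 34.5 and 34.9 RPKM against 42.3 to 58.0 RPKM on glucose, 49.0 to 52.2 on aspen and 45.4 to 54.1 on pine; the Avicel change from glucose was -0.52 ± 0.13 (adjusted p = 0.0486).

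**Figure D5:**
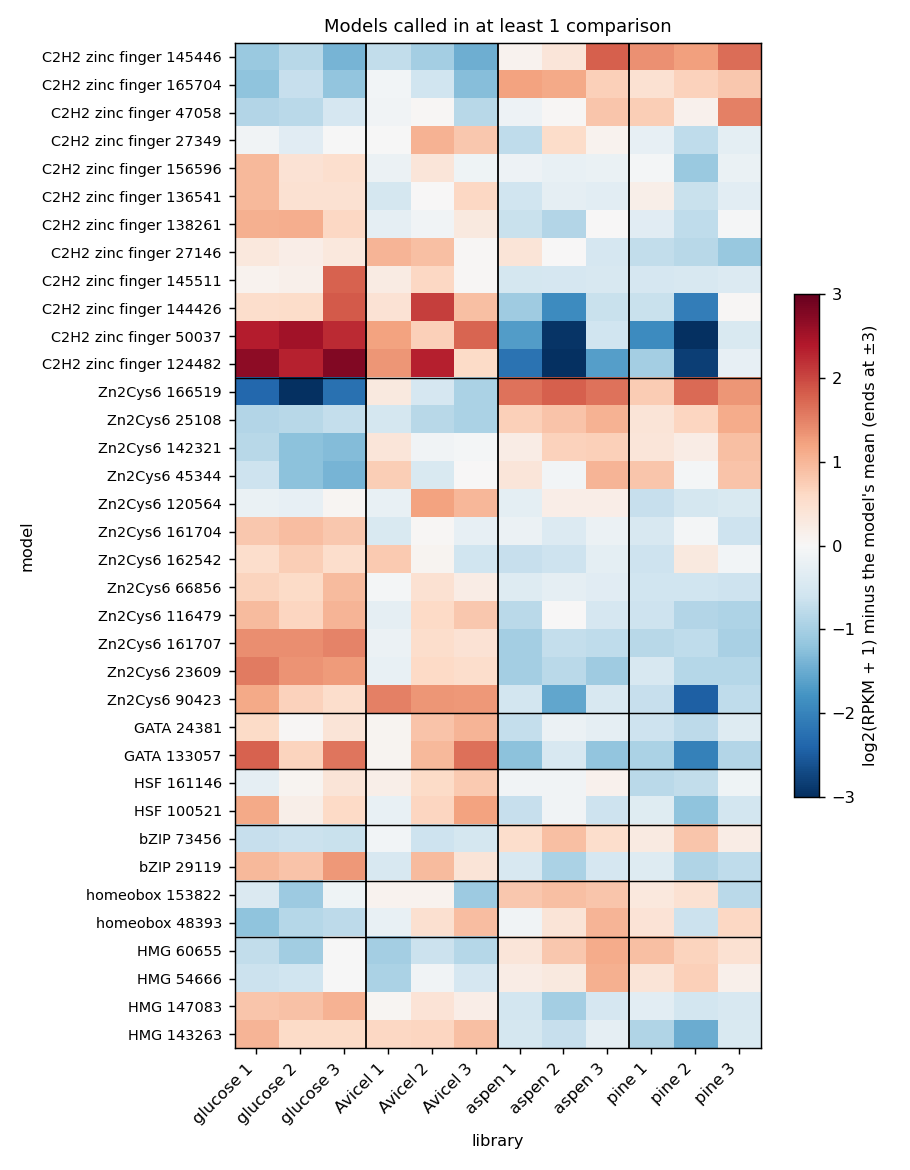
Heat map of the 36 models called in at least 1 comparison, with a row per model in blocks by class and a column per library; colour gives log2(RPKM + 1) minus the model's mean over the 12 libraries and ends at ±3. Most rows differ between the left 6 columns (glucose and Avicel, lane 1) and the right 6 (aspen and pine, lane 2), and within the woods replicate 2 is the darkest blue in C2H2 50037, 124482 and 144426 and Zn2Cys6 90423.

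Avicel against glucose compared a pure crystalline polymer with a free sugar, both in defined medium and within lane 1. Only 5 of 216 models were called (2.31%), beside 1.67% of all tested models (0.962% higher, 0.707% lower), and all 5 were Zn2Cys6 regulators: 166519 and 142321 rose and 161707, 23609 and 161704 fell. Their values are given above. The change of 142321 was 1.19 ± 0.21 (limma, adjusted p = 0.0144), of 161707 -1.16 ± 0.17 (adjusted p = 0.00564), of 23609 -1.10 ± 0.20 (adjusted p = 0.0172) and of 161704 -1.07 ± 0.17 (adjusted p = 0.00825).

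The Avicel calls close to a 2-fold change depended on scaling and on single cultures. With the medians of the libraries made equal, 3 models were higher and none lower. The call of 161707 was lost without Avicel replicate 1, that of 161704 likewise, that of 23609 without glucose replicate 1 or 2 or Avicel replicate 1, and that of 142321 without glucose replicate 2 or 3. The count was 3 without glucose replicate 2 (1 higher, 2 lower), 3 without Avicel replicate 1 (3 higher, 0 lower) and 8 without Avicel replicate 2 (2 higher, 6 lower). Only 166519 kept its call throughout.

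Wood against Avicel compared milled wood in basal salts with a cellulose in defined medium, so the base medium differs as well as the substrate. On aspen 7 models were higher and 9 lower (7.41% of 216), beside 7.23% of all tested models (3.51% higher, 3.72% lower), and the split was 5 higher and 10 lower with library medians made equal. On pine 5 were higher and 15 lower (9.26%), beside 9.02% of all tested models, of which 4.56% were higher and 4.47% lower. Lane and base medium both coincide with the comparison. Higher on both woods were Zn2Cys6 166519 and 25108, C2H2 165704 and 145446 and HMG 60655, and bZIP 73456 and HMG 54666 were called on aspen only. Lower on both were C2H2 50037, 124482 and 144426, Zn2Cys6 161707, 23609 and 90423, GATA 133057 and 24381 and HMG 143263.

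Several of the calls against Avicel rested on single cultures. On aspen, the call of 24381 was lost without Avicel replicate 2 or 3 or aspen replicate 1, of 133057 without Avicel replicate 3 or aspen replicate 1 or 3, of 161707 without Avicel replicate 2, of 144426 and 73456 without Avicel replicate 2 or aspen replicate 2, and of 54666 without Avicel replicate 1 or 3 or aspen replicate 3; those of 73456 and 54666 were also lost with library medians made equal. On pine, the call of 165704 was lost without Avicel replicate 3, of 161707 without Avicel replicate 2, of 23609 without Avicel replicate 2 or 3 or pine replicate 2 or 3, and of 144426 without Avicel replicate 2 or 3 or pine replicate 1 or 2.

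On pine, 6 further models were lower than on Avicel. C2H2 27146 had 129, 121 and 65.8 RPKM on Avicel, 79.3, 73.3 and 79.4 on glucose, 84.2, 64.1 and 44.5 on aspen and 38.0, 35.4 and 28.5 on pine. Pine lay below every other culture. The change from Avicel was -1.55 ± 0.26 (limma, adjusted p = 0.00212) and from glucose -1.17 ± 0.26 (adjusted p = 0.00727). Neither call was lost in any of the 21 settings. Zn2Cys6 120564 had 48.5, 134 and 114 RPKM on Avicel, against 35.1, 39.2 and 41.2 on pine; its change of -1.22 ± 0.30 (adjusted p = 0.0156) was lost without Avicel replicate 2 or 3 or without pine replicate 1. The bZIP model 137910, 4982 bp from it, held 38.1, 37.4 and 44.7 RPKM on Avicel and 61.7, 56.6 and 51.2 on pine, a log2 difference of 0.49 ± 0.13 (adjusted p = 0.0243) short of 2-fold. C2H2 27349 (82.4 ± 28.7 RPKM on Avicel, 38.0 ± 7.13 on pine), HSF 161146 and 100521 and Zn2Cys6 116479 made up the rest. The call of 27349 was lost in 12 of 21 settings, among them without Avicel replicate 2 or 3, without any 1 glucose or pine culture and without aspen replicate 3, that of 161146 without Avicel replicate 3 or pine replicate 1 or 2, that of 100521 without Avicel replicate 2 or 3 or pine replicate 2, and that of 116479 without Avicel replicate 3.

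Pine against aspen, both woods within lane 2, called no transcription factor model, beside 0.157% of all tested models (0.137% higher, 0.0196% lower). By limma, 7 of 216 (3.24%, beside 6.84% of all tested models) had an unadjusted p under 0.05 and the smallest adjusted p was 0.181. That belonged to the fungal specific domain model 78982, with 161, 189 and 172 RPKM on aspen, 108, 97.3 and 125 on pine, 130, 89.5 and 121 on glucose and 152, 133 and 140 on Avicel. Its aspen cultures lay above all others, and the pine change from aspen was -0.67 ± 0.15. The median change over the 216 models was -0.05, with quartiles of -0.19 and 0.08. That no model passed does not show that the woods act alike on these genes.

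There were 29 pairs of these models within 10 kb of each other, of which 6 held a called model; those are described above. A tandem group of C2H2 models on scaffold 6 (74672, 102830, 74629 and 102839, all on the plus strand between 1054845 and 1067357) held no called model: 102830 ranged from 27.5 to 47.4 RPKM over the 12 libraries, 74672 from 11.5 to 22.6, 74629 from 3.28 to 7.71 and 102839 from 3.11 to 6.20. Models 74672 and 74629 have the same span, 868 bp, but unlike domain listings: 4 matches from residue 61 in 74672 and 2 from residue 136 in 74629. Where their sequences are alike, reads may have been split. The sequences were not compared here. In another close pair, 1922 bp apart on scaffold 2, Zn2Cys6 115748 had a mean of 48.3 RPKM over all libraries and Zn2Cys6 97393 had 6.08.

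Other parts of the transcription apparatus, were listed by words in their labels, leaving out the 237. Of 33 other DNA-binding regulators 28 were tested, and on aspen 0 rose and 2 fell (7.14%, beside 11.8% of all tested models), 161293 and 135345; on pine the count was the same, with 161293 and the TEA/ATTS-domain model 30998 (15.6 ± 13.1 RPKM on glucose, 32.5 ± 34.9 on Avicel, 3.08 ± 3.19 on aspen and 1.10 ± 1.04 on pine), which was also lower on both woods than on Avicel. Model 161293, with the HMG-I/Y label of DNA-binding AT-hook proteins, had 18.2 ± 4.08 RPKM on glucose, 6.18 ± 0.961 on aspen and 6.04 ± 2.65 on pine, and the bZIP-1 model 135345 had 51.6 ± 6.89 on glucose, 26.4 ± 4.94 on Avicel, 23.3 ± 2.15 on aspen and 26.8 ± 3.13 on pine. None of the 53 tested models of the general transcription machinery (56 in all), such as polymerase subunits and initiation factors, was called in any comparison; by limma, 8 of them on aspen and 11 on pine had an unadjusted p under 0.05 against glucose (15.1% and 20.8%, beside 38.0% and 39.0% of all tested models). Of 76 chromatin enzymes and readers 65 were tested, and on each wood 1 fell against glucose, the jumonji model 115024, from 35.1 ± 6.93 RPKM to 15.7 ± 1.65 on aspen and 12.8 ± 3.21 on pine. The chromo domain model 76719 was higher on aspen than on Avicel, at 49.5 ± 5.47 against 22.3 ± 6.65 RPKM. Median changes on aspen were -0.13, -0.14 and -0.08 for the 3 lists, beside -0.12 for all tested models.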

How the data were processed

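RNA-seq values were deposited by the authors as RPKM per gene model for 12 libraries, in 1 table, and nothing in the sources used here gives the aligner, the counting, the strand setting or the genome build; the submitters' processing notes name CASAVA 1.8.2. Per the file headers the same table holds InterPro labels, scaffold positions (of an assembly no source used here names), a deposited protein score (emPAI) and peptide number per medium, and a deposited signal peptide probability (a fraction from 0 to 1). That the unit is RPKM was also checked from the values, whose low steps scale with model span and gave the depths; precision is limited by those depths and by 3 cultures a medium.

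log2(RPKM + 1) was fitted with limma 3.58.1 in R 4.3.3 over all 4 media at once (empirical Bayes with intensity trend, 8 residual degrees of freedom), on models with a mean of at least 1 RPKM in a medium. Benjamini-Hochberg adjustment ran over all 10184. Lane was not a covariate, since it coincides with wood against defined medium. In simulated data for aspen against glucose over 10184 genes, 94% of 50 planted log2 changes of 1.5 were recovered, with 4 false calls. The simulated noise was independent and normal, with the variances of the fit itself, so these figures do not measure power or error in the real libraries.

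Alternatives were other pseudocounts, filters, scalings, variance models and fold thresholds, a 2-group fit, a replicate block, a narrower label list and leaving out each library. Named were, per comparison, up to 10 called models with the largest change in each direction, all called in the within-lane comparisons, the 5 most abundant, those with a protein score, the smallest F-test p per class and pairs within 10 kb holding a called model. The remaining called models, 166606, 78982 and the tandem and close pairs were named after their values were seen. The members, lists and rules were chosen with earlier results of these data known.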

Additional observations from a re-analysis of the deposited data

How the results depend on the processing

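No call changed direction in any setting, and 55 of the 96 called changes were kept in all 21 settings that left the fold threshold as it was. Without a fold threshold the counts of the 216 against glucose were 9 for Avicel (5 in the reported setting), 57 for aspen (28) and 58 for pine (27). Against Avicel they were 29 for aspen (16) and 41 for pine (20). Over all 10184 tested models the counts without a fold threshold were 315, 2689, 2736, 1661 and 1980 in the same order. With a fold of at least 4 the counts of the 216 were 1, 8, 8, 5 and 6, given here without those of all tested models. The narrower list of labels left out C2H2, HMG, bHLH and Myb. It held 67 tested Zn2Cys6, 10 GATA, 7 bZIP, 7 homeobox, 7 fungal specific domain and 4 HSF models. Its counts were 17 and 14 for aspen and pine against glucose and 8 and 11 for aspen and pine against Avicel. Of all tested models 11.8% were called on each wood against glucose, and 7.23% and 9.02% against Avicel. The list held 34 of the 60 models that passed the F test, which 29.3% of all tested models passed. Median centring gave 3 Avicel calls against glucose: 166519 and 142321 were kept, 161707, 23609 and 161704 were lost and 1 model was called anew. A pseudocount of 5, which shrinks changes at low values, lost the most calls among the 21 settings, 19 of 96 in 15 models: 161704, 162542, 145511, 145446, 136541, 45344, 156596, 138261 and 47058 against glucose and 145446, 161707, 54666, 24381, 161146, 27349 and 23609 against Avicel. Median centring lost 10 and quantile normalization 7. Leaving out each library in turn gave 3 to 8, 23 to 29, 26 to 30, 0 to 0, 13 to 22 and 14 to 26 calls for Avicel, aspen and pine against glucose, pine against aspen, and aspen and pine against Avicel, and 46 to 61 in the F test. With the replicate number as a block the counts were 6, 28, 28, 0, 16 and 20, and 56 in the F test. Same-numbered cultures of different media correlated at -0.418 to 0.437, and cultures of unlike number at -0.418 to 0.333. Of 12 libraries, 7 correlated best with their own number. With ranges that overlap so widely, this check cannot decide whether the numbers pair the cultures. Depth limits models under about 0.3 RPKM.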

Other observations

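The deposited protein scores, 1 value per medium without replicates, covered 2 of the 237 models. HMG 140741 had emPAI scores of 0.342 on glucose, 0.331 on Avicel, 0.163 on aspen and 0.186 on pine, from 3, 2, 2 and 2 peptides. Myb 107143 was listed at 0 on glucose and Avicel, with 0.104 on aspen (3 peptides) and 0.0772 on pine (2 peptides), while its RNA was 26.1 ± 7.12 RPKM on glucose, 22.1 ± 0.618 on Avicel, 18.9 ± 2.97 on aspen and 18.1 ± 3.05 on pine (SD, n = 3). With so few peptides the order of these scores cannot be read. A signal peptide probability, which marks proteins routed for secretion, was listed for 2 models, bHLH 63513 at 1.0 and bZIP 140638 at 0.996.

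The tested models next to the regulators on the scaffolds were counted by their own aspen calls against glucose. Of 19 models flanking the 10 that rose on aspen 0 were called, and of 25 flanking the 18 that fell 1 was higher and 2 lower (12%). Of those flanking uncalled regulators 10.4% were called, beside 11.8% of all tested models. By pine calls, 0 of 16 flanking the 9 that rose were called, and of 23 flanking the 18 that fell 1 was higher and 2 lower (13.0%). For uncalled regulators the pine share was 9.6%, again beside 11.8%. Differences between these shares were not tested.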
